A study of Mus musculus with 8 samples.

Results

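The genes described here bear the names of cytoplasmic ribosomal proteins and were chosen by symbol. The rule asked for an Rpl (large subunit) or Rps (small subunit) name with a number and at most a short suffix, or Rplp0, Rplp1, Rplp2 or Rpsa. Some of these genes, Rps4l among them, are pseudogenes in the annotation used. The rule found 89 of the 53655 gene symbols in the count table, 53 of the large subunit and 36 of the small one. The values come from RNA-seq of tuft cells, rare chemosensory cells of the gut epithelium, which were sorted from the small intestine of naïve mice and split by a reporter of Chat, the enzyme that makes acetylcholine. There were 4 Chat-pos libraries (Chat-GFP+ cells) and 4 Chat-neg libraries (Chat-GFP- cells). Every mouse had the genotype Il25-RFP/+;Chat-GFP(Tg+), so both groups carried both reporters, and both were gated as CD45- EPCAM+ Il25-RFP+. Chat-GFP is a transgene, so the split is by reporter fluorescence and not by the Chat protein. The labels do not say which animals a library came from or whether animals were pooled, so the p-values below speak only of how libraries vary, and part of that can be technical.

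A ribosome is built of a small subunit, which holds the mRNA and reads its codons, and a large subunit, which joins amino acids and guides the growing chain through an exit tunnel. Most of the proteins are present in a single copy per subunit, and cells make the set in near equal amounts. In mammals their mRNAs begin with a run of C and T bases at the transcription start, the 5' terminal oligopyrimidine (TOP) tract, through which growth signals acting on mTOR and Larp1 set their translation together.

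The start regions of 10 members are shown because the start is where the TOP tract of the family would lie. They are the members named below for the smallest p or for the highest difference that have 1 annotated start in the table used, with Rps4x added for its paralog pair. Each line gives the 40 bases from 20 before the start, taken from RefSeq on GRCm38.p6 and written 5' to 3' on the gene's strand. Capitals mark every run of at least 8 C or T bases, which 6 of the 10 hold and Rpl12, Rps4x, Rps3 and Rpl41 do not.
Rps15a (chr7:118116128-118116167, minus strand): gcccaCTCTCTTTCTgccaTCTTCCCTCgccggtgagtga
Rpl12 (chr2:32961692-32961731, plus strand): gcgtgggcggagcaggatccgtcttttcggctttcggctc
Rpl38 (chr11:114668560-114668599, plus strand): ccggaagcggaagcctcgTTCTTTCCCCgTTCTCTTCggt
Rps12 (chr10:23787190-23787229, minus strand): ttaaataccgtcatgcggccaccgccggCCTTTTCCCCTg
Rpl39 (chrX:37085203-37085242, minus strand): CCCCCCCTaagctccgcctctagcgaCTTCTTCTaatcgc
Rps4x (chrX:102189372-102189411, minus strand): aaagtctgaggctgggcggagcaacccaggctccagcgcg
Rps3 (chr7:99483690-99483729, minus strand): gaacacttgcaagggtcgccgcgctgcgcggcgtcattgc
Rpl7a (chr2:26910787-26910826, plus strand): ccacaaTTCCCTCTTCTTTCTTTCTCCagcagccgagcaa
Rpl18 (chr7:45718051-45718090, plus strand): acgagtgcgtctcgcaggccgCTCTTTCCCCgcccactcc
Rpl41 (chr10:128549149-128549188, minus strand): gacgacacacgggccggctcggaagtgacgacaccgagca
Of the 89 members, 64 matched a gene in the promoter table. A run of at least 8 C or T bases lay within 20 bases of the start in 31 of the 64 members (48.4%), against 18.4% of the 27025 genes in the table. On the other strand the share was 7.81% of members and 20.2% of all genes. The motif CCGGAAG, the core that Gabpa and related ETS factors bind, was found on either strand of the 300 bases around the start in 40.6% of members and in 9.93% of all genes. Among genes with enough counts to be tested the gap was smaller, 42.4% of 59 members against 22.6% of 7008 genes, while the run of C or T was found in 50.8% of those members and 19.4% of those genes. Its reverse complement, CTTCCGG, begins with a short run of C and T, so the searches can overlap. Both features were found among the members that fell most and among those that did not pass the test. The 59 tested members with a promoter had a median log2 difference of -0.96 with the run and -0.99 without it, and of -0.97 with CCGGAAG and -0.91 without it. An annotated start can lie some bases from the one used in these cells, and runs shorter than 8 bases were not counted. The window of Rpl12, for example, holds a run of 7. A missing run thus says only that none of at least 8 bases is in this window.

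In the 8 libraries, 1757401 to 2541955 counts fell on named genes in Chat-pos and 87642 to 1176880 in Chat-neg; Chat-neg 1 was the shallowest. Chat itself had 309, 285, 350.2 and 355 CPM (counts per 1000000 of scaled named-gene totals) in Chat-pos libraries 1 to 4, against 93.2, 109.9, 147 and 97.9 CPM in Chat-neg libraries 1 to 4, in the direction of the labels. Summed levels of 11 tuft cell markers, all detected in both groups, ran from 20553 to 21850 CPM across Chat-pos and from 8142 to 15805 CPM across Chat-neg. The 9 Paneth cell markers, led by Defa24, summed to 59349 and 32323 CPM in Chat-pos 2 and 3. They summed to 487 and 623 CPM in Chat-pos 4 and 1 and to 694 to 3461 CPM across Chat-neg. The 9 lymphocyte markers summed to 6.11, 283, 10.2 and 6.21 CPM in Chat-pos libraries 1 to 4, against 218, 291, 348 and 169 CPM in Chat-neg libraries 1 to 4. Only Chat-pos 2 reached the Chat-neg range. The 9 enterocyte markers summed to 32616 to 53572 CPM across Chat-pos and 19133 to 44414 CPM across Chat-neg. Olfactory and vomeronasal receptor genes, without Vmn2r26, were read as a measure of background on the untested assumption that tuft cells do not express them. They took 149.9 to 288 counts per 1000000 unscaled named counts across Chat-pos and 386 to 4119 across Chat-neg. No marker in these lists was at 0 in all libraries of a group. Mitochondrial mRNAs took 5.85% to 8.86% of named counts in Chat-pos and 4.33% to 5.22% in Chat-neg. The part of depth, background and other cell types in the results below was not tested, except where a value without the libraries concerned is given.

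As a family, ribosomal protein mRNAs took a smaller share of named counts in the Chat-pos libraries. The 89 genes together took 1.53%, 1.53%, 1.36% and 1.46% of named counts in Chat-pos libraries 1 to 4, against 1.88%, 2.78%, 2.57% and 3.87% in Chat-neg libraries 1 to 4. All Chat-pos values lay below all Chat-neg values, and the Chat-neg libraries differed far more among themselves. Chat-neg 1 was closest to Chat-pos and Chat-neg 4 farthest from it. Large subunit genes took 0.762% to 0.865% in Chat-pos and 1.03% to 2.07% in Chat-neg. Small subunit genes took 0.602% to 0.672% in Chat-pos and 0.853% to 1.80% in Chat-neg. In bulk libraries, fewer cells with a high level and less of the mRNA in each cell cannot be told apart.

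**Figure D1:**
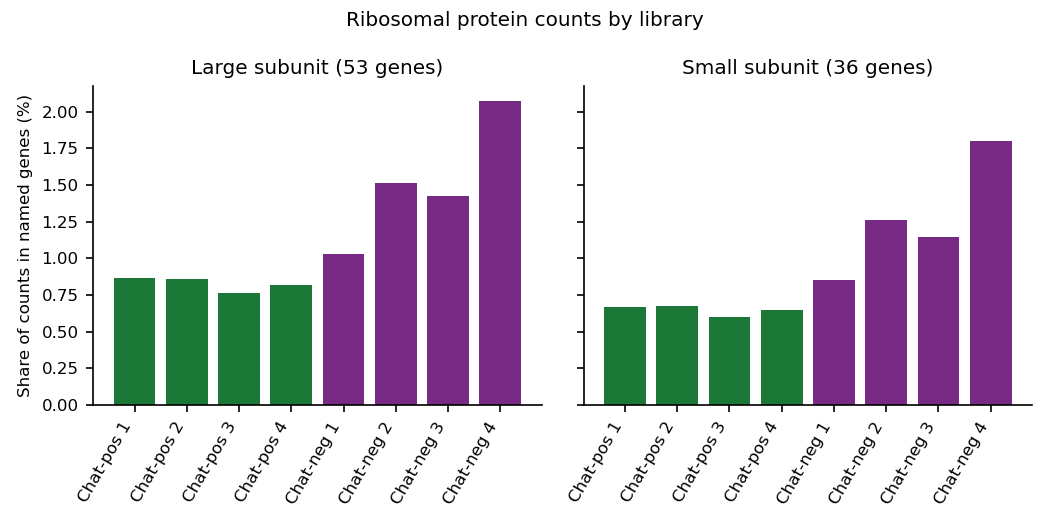
Share of named-gene counts (%, y axis) taken by the 53 large and 36 small subunit genes in each library (x axis), Chat-pos in green and Chat-neg in purple. The 4 Chat-pos bars are nearly level in both panels, and every Chat-neg bar is taller, with Chat-neg 4 the tallest.

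Of the 89 members, 80 had enough counts to be tested, and 54 of these passed edgeR's quasi-likelihood test (Benjamini-Hochberg adjusted over all 8919 genes tested, threshold 0.05) as lower in Chat-pos. None passed as higher. Among all genes tested, 2.87% were called lower and 3.62% higher. The log2 difference was negative for 79 of the 80, with a median of -0.95 against -0.02 over all genes tested. In 38 of the 80 every Chat-pos library lay below every Chat-neg library, which held for 4.72% of all genes tested. Without Chat-neg 4, the library with the highest levels, the count called lower was 32, of 124 genes called lower in that fit, and without both Paneth-rich libraries, Chat-pos 2 and 3, it was 20, of 86 genes. The median log2 difference was -0.71 without Chat-neg 4 and -0.84 without Chat-pos 2 and 3. With no filter on low counts 14 members were called, of 143 genes. Over all genes the main count called lower was 256.

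The remaining 9 members were not tested. Rpl10l, Rpl3l and Rps12l1 had 0 counts in every library, and Rpl39l had 1 count in all. Rpl10l and Rpl3l are known as testis and muscle copies of Rpl10 and Rpl3. Rpl32l, Rpl6l, Rps3a2 and Rps3a3, which the annotation gives as pseudogenes, stayed below 5 CPM in each library. Rpl24, a protein of the bridge to the small subunit, had 3, 4, 3 and 6 counts in Chat-pos libraries 1 to 4 and 0, 3, 1 and 0 in Chat-neg libraries 1 to 4. It shares exon bases with Gm28037 on the same strand, and how the authors treated shared reads is not given in the sources used here. Rpl13a, which shares exons with Gm45713, had at most 13.6 CPM and was tested without a call.

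The fall was described separately for the subunits. Among large subunit genes 28 of 47 tested (59.6%) were called lower, with a median log2 difference of -0.92. Among small subunit genes 26 of 33 (78.8%) were called lower, with a median of -1.01. Without Chat-neg 4 the counts were 15 large and 17 small, and without Chat-neg 2 they were 19 and 17. Without Chat-pos 2 and 3 they were 7 and 13, and with no filter 6 and 8. Over all genes, 124, 110, 86 and 143 were called lower in these fits, in that order, against 256 in the main fit. A called fall of over 2-fold was seen for 15 large and 18 small subunit genes. The median of the small subunit was lower than that of the large one by 0.09 on the log2 scale. The sign of that difference was the same in the 18 alternative fits, where the small minus large value ran from -0.05 to -0.19. Those fits reuse the same libraries and are no independent check. The gap was small beside the SD among members, 0.36 in the large and 0.39 in the small subunit. No p was taken from the gap, since genes that share libraries are not replicates.

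Within a library, small subunit genes had 0.768, 0.783, 0.790 and 0.797 counts per large subunit count in Chat-pos libraries 1 to 4, against 0.831, 0.833, 0.805 and 0.869 in Chat-neg libraries 1 to 4. The groups did not overlap, and the mean was 0.785 ± 0.012 in Chat-pos and 0.835 ± 0.026 in Chat-neg (SD, n = 4 each). For the shallow Chat-neg 1 the counting interval was wide. The small subunit share of its 1648 ribosomal protein counts was 45.4%, with a 95% binomial interval (Wilson) of 43.0% to 47.8%. That interval covers counting error only. Rpl41, which codes for one of the shortest proteins known, took 14.7%, 10.6%, 10.4% and 11.1% of large subunit counts in Chat-pos libraries 1 to 4, against 6.67%, 7.08%, 8.86% and 6.37% in Chat-neg libraries 1 to 4. With Rpl41 not counted, the ratio was 0.901, 0.876, 0.882 and 0.897 in Chat-pos and 0.890, 0.897, 0.884 and 0.928 in Chat-neg, and the groups overlapped. A measure that a single gene hardly moves kept them apart. The log2 deviation from the mean of the 8 libraries, as the median small minus the median large subunit gene, was -0.09, -0.07, -0.09 and -0.06 in Chat-pos libraries 1 to 4, against 0.05, 0.07, 0.02 and 0.14 in Chat-neg libraries 1 to 4. All Chat-pos values of this measure lay below all Chat-neg values, so whether the groups overlapped depended on the measure.

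**Figure D2:**
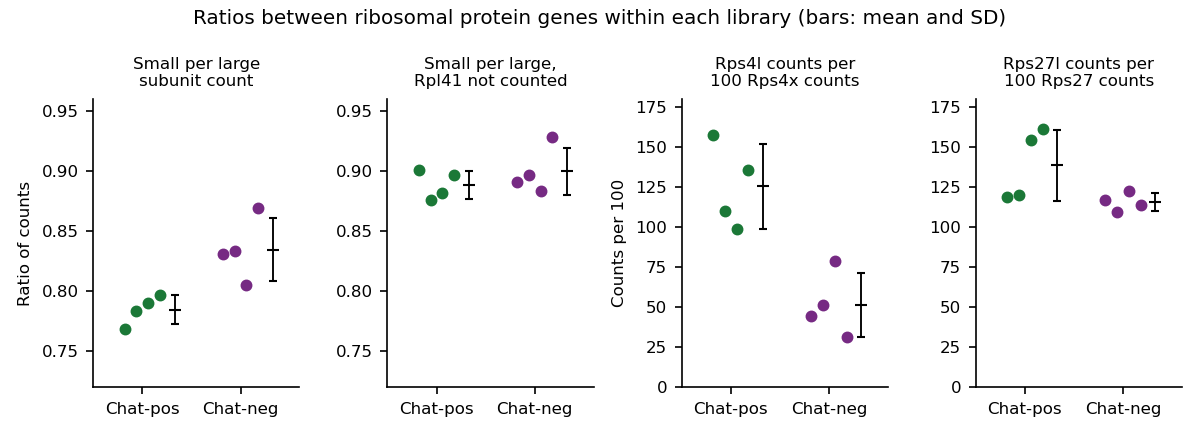
Ratios between ribosomal protein genes inside each library, one point per library (Chat-pos green, Chat-neg purple), with bars for the mean and SD of 4 libraries. The 2 panels on the left have axes that do not start at 0 and show the small to large ratio with and without Rpl41; the groups are apart in the first and overlap in the second. The 2 panels on the right show Rps4l per 100 Rps4x counts, apart between groups, and Rps27l per 100 Rps27 counts, which overlap.

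The members differed in the size of the difference. Their log2 differences ran from -1.71 to 0.31, with an SD of 0.37 among the 80, against a median standard error of 0.22. The SD was 0.36 in the large and 0.39 in the small subunit. Across members the difference had a Spearman rho of 0.35 with coding length (n = 79), 0.43 in the large subunit (n = 47) and 0.26 in the small one (n = 32). The Pearson r with log2 coding length was lower, 0.19 over all members. Spearman rho was 0.25 with transcript length and 0.11 with mean level (n = 80 each). These are descriptions across genes that share the same libraries. Genes of other kinds and similar length were set beside them. The 276 other tested genes with transcripts under 600 bases had a median log2 difference of -0.20, with 9.42% called lower, while the 30 members of that length had a median of -1.01. For 600 to 1000 bases the median was 0.04 over 644 other genes and -0.94 over 32 members.

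**Figure D3:**
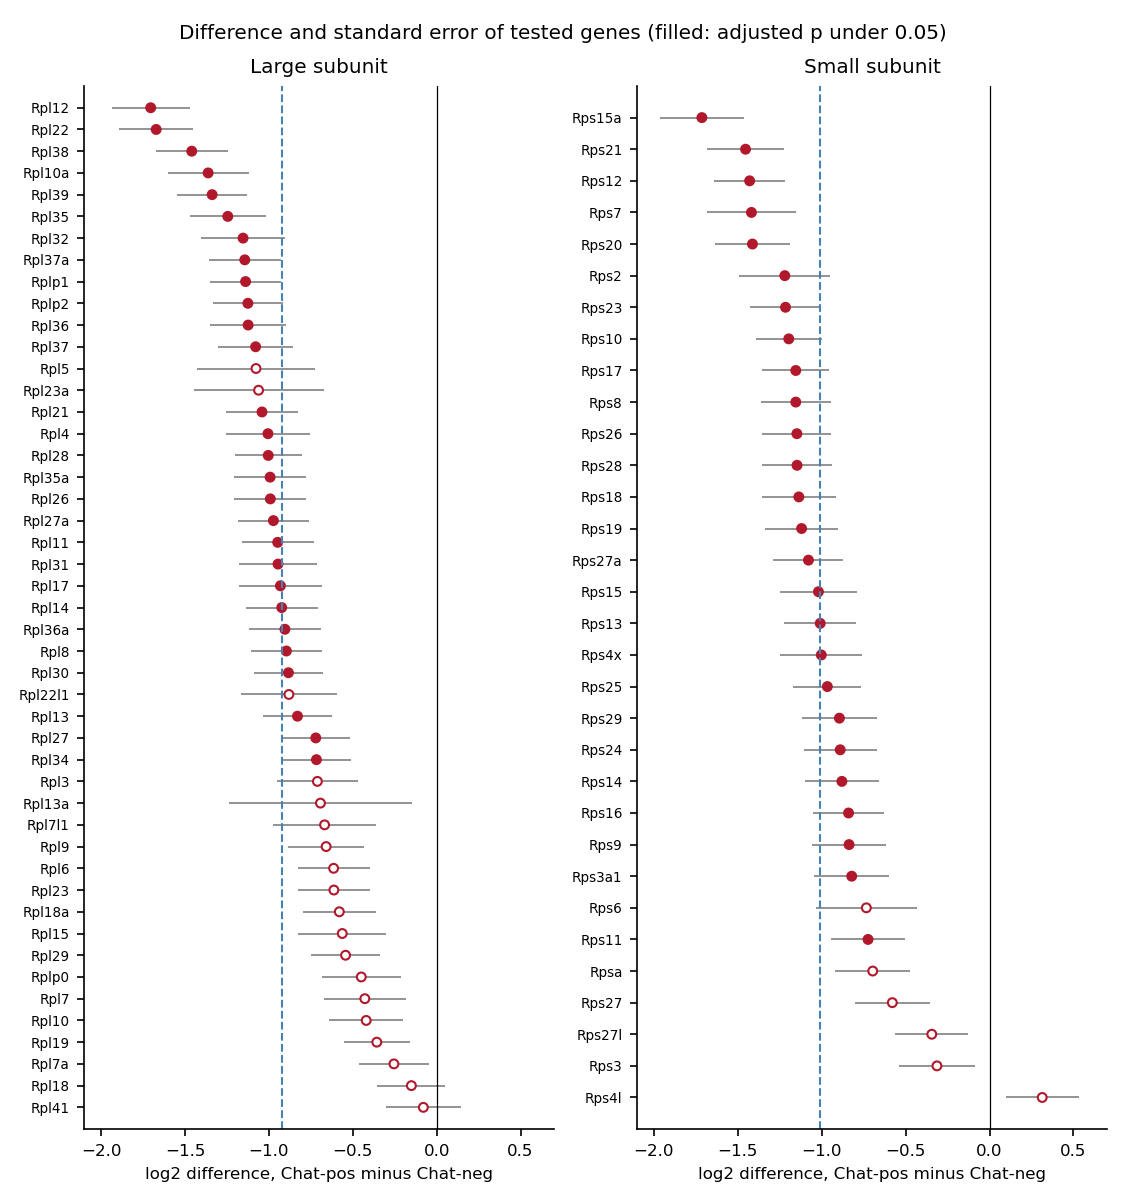
log2 difference, Chat-pos minus Chat-neg (x axis), of tested large and small subunit genes (rows), with bars for the standard error. Filled points passed the test, open points did not, and the dashed line is the median of all tested genes of the subunit, -0.92 for the large and -1.01 for the small subunit; Rps4l alone lies to the right of 0.

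The large subunit genes with the smallest p were Rpl22, Rpl12, Rpl38 and Rpl39. Rpl22, an RNA-binding protein near the mouth of the exit tunnel that mice can live without, had 64.7, 59.8, 55.3 and 58.4 CPM in Chat-pos libraries 1 to 4, against 114, 174, 148 and 278 CPM in Chat-neg libraries 1 to 4. The 4 Chat-pos libraries were nearly level and all below Chat-neg (log2 difference -1.67 ± 0.22 SE, edgeR adjusted p = 2.3e-05). Rpl12, at the base of the stalk that elongation factors dock on, had 59.9, 80.1, 64.6 and 43.1 CPM in Chat-pos libraries, against 155, 204, 138 and 277 CPM in Chat-neg libraries. The groups did not overlap (-1.70 ± 0.23, edgeR adjusted p = 3.18e-05), though Rpl12 shares exon bases with Lrsam1 on the other strand and the libraries do not mark strand. Rpl38, known in mice for its role in the translation of Hox mRNAs, had 250.4, 202, 153 and 171 CPM in Chat-pos libraries, against 445, 572, 433 and 612 CPM in Chat-neg libraries. Its highest Chat-pos value stayed well under its lowest Chat-neg value (-1.46 ± 0.21, edgeR adjusted p = 8.71e-05). Rpl39, a short protein of the exit tunnel wall, had 129, 97.2, 96.1 and 106 CPM in Chat-pos libraries, against 186, 265, 234 and 345 CPM in Chat-neg libraries, again without overlap (-1.34 ± 0.21, edgeR adjusted p = 0.000171).

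In the small subunit the 4 were Rps12, Rps15a, Rps20 and Rps21. Rps15a had 111, 113, 71.5 and 96.5 CPM in Chat-pos libraries 1 to 4, against 218, 306, 205 and 502 CPM in Chat-neg libraries 1 to 4. It had the lowest log2 difference of all members, -1.71 ± 0.25 (SE; edgeR adjusted p = 0.000165), and Chat-neg 4 stood far above the other libraries. Rps12, a protein of the beak of the subunit, had 167, 146, 142 and 138 CPM in Chat-pos libraries, against 279.7, 432, 310.3 and 508 CPM in Chat-neg libraries. The groups were well apart (-1.43 ± 0.21, edgeR adjusted p = 8.71e-05). Rps20 (GRCm38, chr4:3831334-3835665), of the subunit's head, had 194, 187, 166 and 168 CPM in Chat-pos libraries, against 259, 496, 405 and 659 CPM in Chat-neg libraries. Rps21 (GRCm38, chr2:180257377-180258445), a protein with no bacterial counterpart, had 203, 142, 105 and 114 CPM in Chat-pos libraries, against 290.1, 401, 297 and 497 CPM in Chat-neg libraries. Neither gene had overlapping groups, and the log2 differences were -1.41 ± 0.22 and -1.45 ± 0.23 (edgeR adjusted p = 0.000219 and 0.000227).

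At the other end, Rpl41, Rpl18 and Rpl7a had the highest log2 differences of the large subunit. Rpl41 had 1361, 955, 802 and 953 CPM in Chat-pos libraries 1 to 4, against 622, 1039, 1249.8 and 1253 CPM in Chat-neg libraries 1 to 4. The groups overlapped over most of their range, Chat-pos 1 was the highest of all libraries and Chat-neg 1 the lowest (log2 difference -0.08 ± 0.22, edgeR adjusted p = 0.893). The sign for Rpl41 was positive in 5 alternative fits, among them the one without both Paneth-rich libraries (0.21). Rpl18 had 343, 379, 313 and 355 CPM in Chat-pos libraries, against 269, 357, 379 and 474 CPM in Chat-neg libraries. Every Chat-pos value lay inside the Chat-neg range (-0.15 ± 0.20, edgeR adjusted p = 0.734), and the sign was positive in the fit without Chat-neg 4 (0.01) and in the one with no filter on low counts (0.09). Rpl7a had 106, 161, 138 and 130.5 CPM in Chat-pos libraries, against 93.2, 172, 143 and 189.6 CPM in Chat-neg libraries (-0.25 ± 0.21, edgeR adjusted p = 0.537). A p that misses the threshold does not show that these genes were level between the groups.

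Rps4l, Rps3 and Rps27l had the highest log2 differences of the small subunit. Rps3, which lines the mRNA entry channel, had 349, 453, 424 and 469.7 CPM in Chat-pos libraries 1 to 4, against 290.1, 468, 508 and 754 CPM in Chat-neg libraries 1 to 4. Its groups overlapped (log2 difference -0.31 ± 0.22, edgeR adjusted p = 0.468). Rps27l, a copy of Rps27 known as a target of p53, had 644, 498, 482 and 635 CPM in Chat-pos libraries, against 425, 664, 730.3 and 944 CPM in Chat-neg libraries, and overlapped too (-0.34 ± 0.22, edgeR adjusted p = 0.397). Rps4l is taken up with its pair below.

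**Figure D4:**
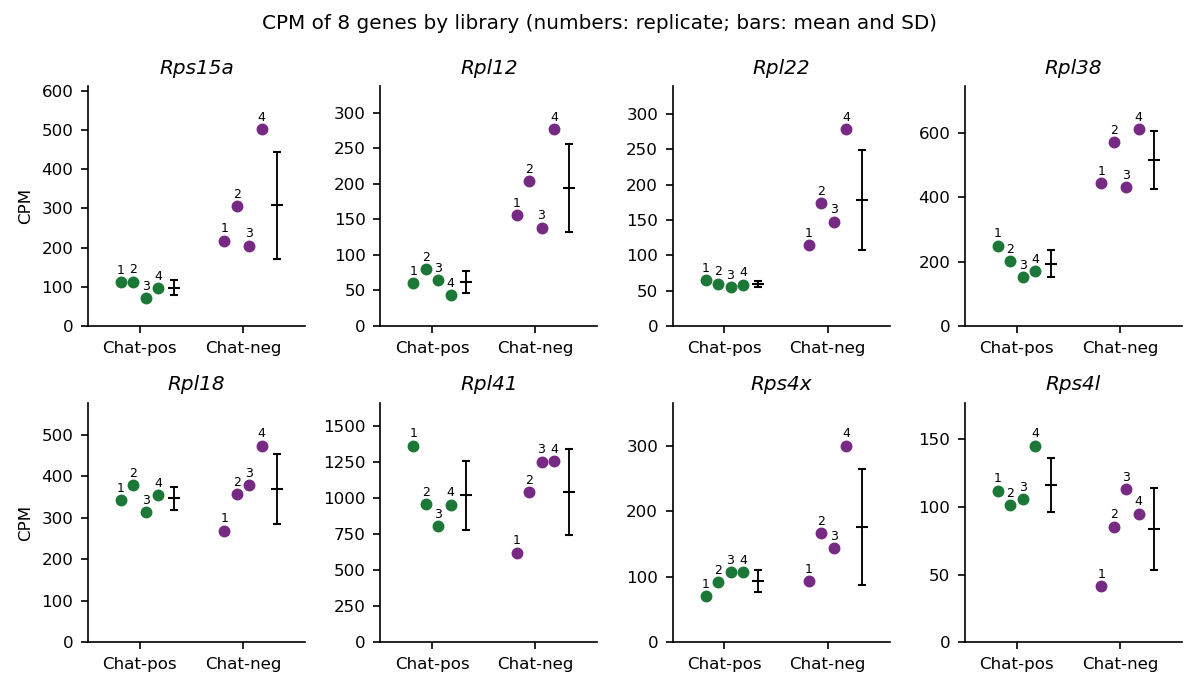
CPM (y axis, from 0) of 8 genes in each library, labelled by replicate number, Chat-pos left and Chat-neg right, with the mean and SD beside the points. The groups are apart for Rps15a, Rpl12, Rpl22 and Rpl38, and overlap for Rpl18, Rpl41, Rps4x and Rps4l.

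By level per kb of transcript, Rpl41, Rpl38 and Rpl37a led the large subunit and Rps29, Rps27 and Rps27l the small one. On that scale (CPM per kb, mean of 4 libraries) Rpl41 was at 2329 in Chat-pos and 2381 in Chat-neg, Rpl38 at 562 in Chat-pos and 1494 in Chat-neg, and Rpl37a at 560.4 in Chat-pos and 1193 in Chat-neg. Rps29 was at 1192 in Chat-pos and 2140 in Chat-neg, Rps27 at 1206 in Chat-pos and 1732 in Chat-neg, and Rps27l at 1132 in Chat-pos and 1384 in Chat-neg. Rps29 had the highest mean of the small subunit genes in Chat-neg, but the ranges of these 3 over the libraries overlapped in both groups. Of these 6, Rpl38, Rpl37a and Rps29 passed as lower in Chat-pos, with log2 differences of -1.46, -1.14 and -0.89.

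The members were also grouped by their place in the ribosome. In the P stalk of the large subunit, which recruits the elongation factors, 3 of 4 genes were called lower. Rplp1 averaged 256 ± 47.9 CPM over the Chat-pos libraries and 546 ± 103 CPM over the Chat-neg libraries, and Rplp2 averaged 201 ± 35.9 CPM over Chat-pos and 420.3 ± 96.2 CPM over Chat-neg (SD, n = 4 each). Both were non-overlapping between groups, as was Rpl12. Rplp0, which anchors them, had 196, 266, 305 and 280.4 CPM in Chat-pos libraries 1 to 4, against 166, 356, 313 and 521 CPM in Chat-neg libraries 1 to 4, overlapped and was not called (log2 difference -0.45 ± 0.24). Around the polypeptide exit tunnel 7 of 9 genes were called lower, with a median log2 difference of -1.01. Rpl35, beside the tunnel's mouth, had 151, 134, 109 and 128 CPM in Chat-pos libraries, against 124, 304, 353 and 378 CPM in Chat-neg libraries. Only Chat-neg 1 fell within the Chat-pos range for Rpl35 (-1.25 ± 0.23, edgeR adjusted p = 0.000868). Rpl19 and Rpl23a were the 2 of the 9 not called. Of the proteins that join the 5S rRNA before assembly and bind Mdm2 when assembly fails, Rpl11 was called (-0.95 ± 0.21) and Rpl5, more variable, was not (-1.08 ± 0.35, edgeR adjusted p = 0.101), although its groups did not overlap.

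In the small subunit, 4 of 5 genes at the mRNA entry and decoding site were called lower, with a median log2 difference of -1.02. Rps23, which touches the codon being read, had 78.8, 81.0, 79.4 and 67.5 CPM in Chat-pos libraries 1 to 4, against 124, 167, 140.0 and 246 CPM in Chat-neg libraries 1 to 4. Rps2 had 59.2, 92.8, 92.4 and 87.8 CPM in Chat-pos libraries, against 62.2, 189, 157 and 299.99 CPM in Chat-neg libraries. The groups were apart for Rps23 (-1.22 ± 0.21, edgeR adjusted p = 0.00055) and overlapped through Chat-neg 1 for Rps2 (-1.22 ± 0.27, edgeR adjusted p = 0.00968). At the mRNA exit and platform 3 of 6 genes were called, with a median of -0.79. Rps7, Rps14 and Rps26 passed. Rps26, which contacts the mRNA ahead of the start codon, averaged 218 ± 32.9 CPM over Chat-pos and 467 ± 78.2 CPM over Chat-neg (SD, n = 4 each). Rps27a, made as a fusion with ubiquitin, was called lower (-1.08 ± 0.21). Rps6, the protein that S6 kinases phosphorylate, had 48.3, 110.0, 92.4 and 79.5 CPM in Chat-pos libraries and 62.2, 100.02, 121 and 222 CPM in Chat-neg libraries, and its groups overlapped (-0.73 ± 0.30, edgeR adjusted p = 0.171). All counts of called members in these groups are to be read against the 2.87% of all genes and the 67.5% of tested members called lower. Whether any of these groups differs from the rest of the family was not tested.

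The libraries of the Chat-neg group, which holds the shallowest one, were spread more widely. The median coefficient of variation of the 80 tested members was 15.2% over the Chat-pos libraries and 31.9% over the Chat-neg libraries, and it was larger in Chat-neg for 77 of the 80. Over all genes tested the medians were 23.8% in Chat-pos and 38.3% in Chat-neg. Chat-neg 4 was the highest of the 8 libraries for 73 of the 80 members. Chat-neg 1 was the lowest Chat-neg library for 68 of them, and the lowest of all 8 for 18, where a tested member rested on a median of 20 counts. Chat-pos 3 was the lowest of all 8 for 38 members. In log2 deviation from the mean of the 8 libraries, the median member was at -0.35, -0.34, -0.54 and -0.44 in Chat-pos libraries 1 to 4, against -0.22, 0.48, 0.37 and 0.95 in Chat-neg libraries 1 to 4. Thus Chat-neg 1 lay nearer to Chat-pos than to the other Chat-neg libraries by this measure; its receptor background, 4119 CPM, was the highest of the 8. The 12 stem and cycling cell markers summed to 198, 715, 1245 and 231 CPM in Chat-pos libraries 1 to 4. In Chat-neg libraries 1 to 4 they summed to 259, 437, 216 and 1292 CPM, so Chat-neg 4 was the highest there too and Chat-pos 3 came next. Olfm4 alone had 898 CPM of the sum in Chat-pos 3 and 699 CPM of the sum in Chat-neg 4. The 7 goblet cell markers summed to 476, 1543, 886 and 302 CPM in Chat-pos libraries, against 456, 1055, 5398 and 2084 CPM in Chat-neg libraries. The 7 enteroendocrine markers, led in every library by Sct, summed to 1195 to 1875 CPM across Chat-pos and 508 to 1362 CPM across Chat-neg. Without Sct, left out after the values were seen, the other 6 summed to 3.31 to 19.5 CPM across Chat-pos, against 0, 44.5, 6.75 and 423 CPM in Chat-neg libraries 1 to 4, led in Chat-neg 4 by Chgb at 334 CPM. The count of 0 in Chat-neg 1 allows up to 31.1 CPM (3 counts). The part of these cell types in the ribosomal protein levels was not tested. Called members kept their call in all 8 fits that leave out 1 library for 30 of 54, 14 large and 16 small. Of these 30, 18 were also called without both Paneth-rich libraries, among them Rpl12, Rpl22, Rpl38, Rpl39, Rps12, Rps15a, Rps20 and Rps21.

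**Figure D5:**
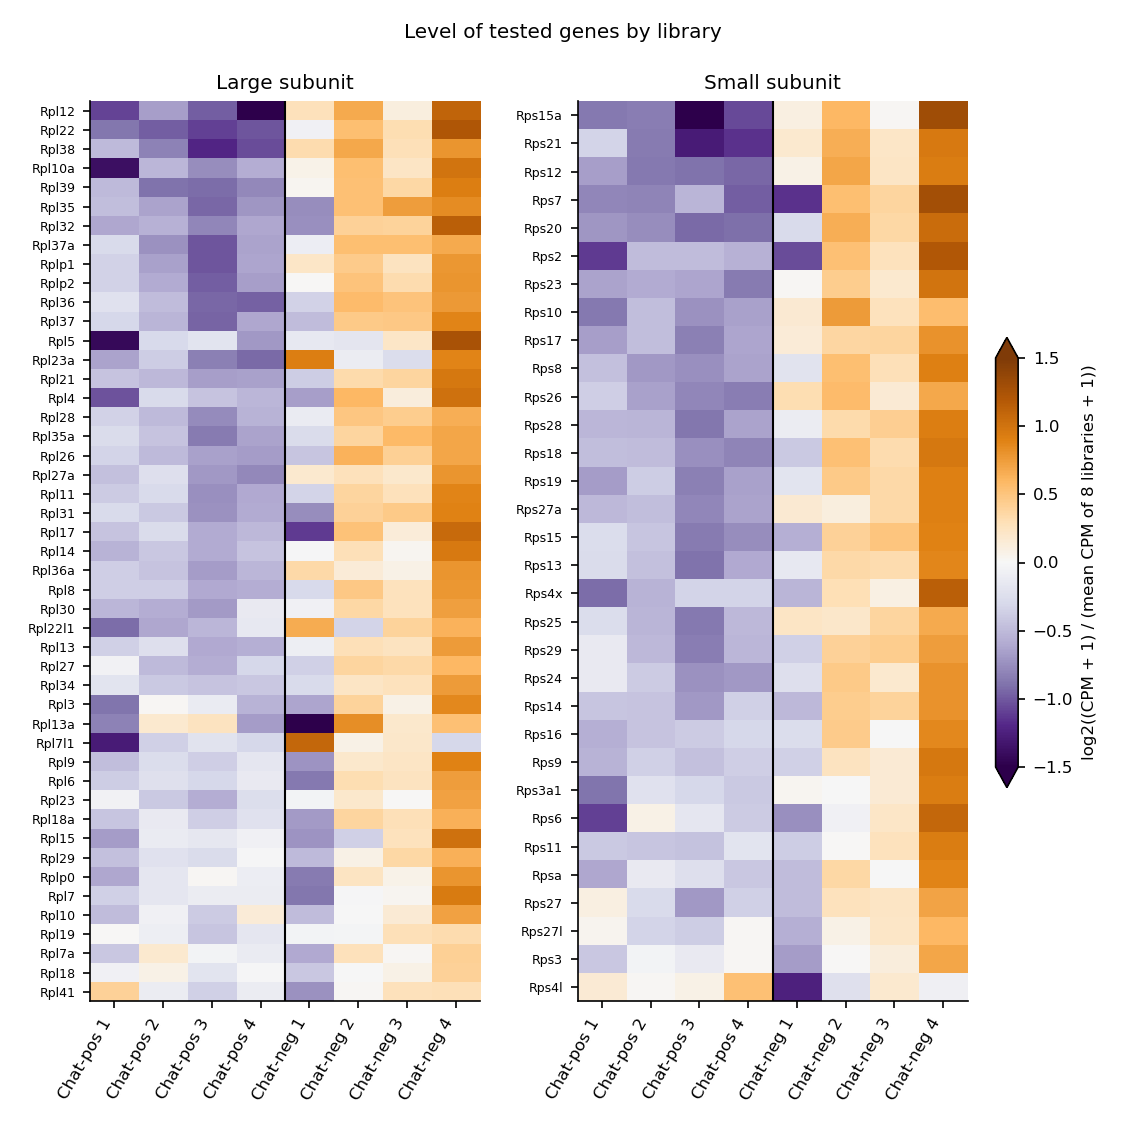
Level of the same tested genes (rows, sorted by log2 difference within subunit) in each library (columns, Chat-pos left of the line and Chat-neg right), as log2 of (CPM + 1) over (the gene's mean CPM of 8 libraries + 1). Chat-neg 4 is the darkest orange column and Chat-neg 1 is mixed, while the Chat-pos columns are purple for most genes and fade to white in the last rows. Values beyond 1.5 in either direction share the end colours.

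Ribosomal proteins with close copies were compared within libraries, where scaling cancels. Rps4x, on the X chromosome (GRCm38, chrX:102184941-102189394), and Rps4l, a copy on chromosome 6 (chr6:148354656-148355598) that the annotation gives as a transcribed processed pseudogene, had 1320 and 1258 counts over the 8 libraries. Rps4x had 70.9, 92.0, 107 and 107 CPM in Chat-pos libraries 1 to 4, against 93.2, 167, 143 and 299.99 CPM in Chat-neg libraries 1 to 4, and was called lower (log2 difference -1.003 ± 0.24, edgeR adjusted p = 0.0128). Rps4l had 112, 101, 105 and 145 CPM in Chat-pos libraries, against 41.4, 85.2, 113 and 94.8 CPM in Chat-neg libraries, and was the 1 tested member with a positive difference, not called (0.31 ± 0.22, edgeR adjusted p = 0.454). There were 158, 110.0, 98.7 and 136 Rps4l counts per 100 Rps4x counts in Chat-pos libraries, against 44.4, 51.1, 78.8 and 31.6 in Chat-neg libraries. All 4 Chat-pos ratios lay above all 4 Chat-neg ratios. The log2 ratio differed by 1.31 (two-sided exact permutation test, p = 0.0286, the smallest that 4 against 4 libraries allow; 0.114 after Benjamini-Hochberg adjustment over the 4 pairs tested). The pair thus did not pass the adjustment. Reads that fit both copies can be split between them by the authors' counting, so each level is uncertain.

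The other 3 pairs had overlapping ratios. Rps27l stood at 119, 119.9, 154 and 161 counts per 100 Rps27 counts in Chat-pos libraries 1 to 4, against 117, 109.6, 123 and 114 in Chat-neg libraries 1 to 4 (difference of the log2 ratio 0.24, exact permutation p = 0.114). Rpl22l1, which Rpl22 is known to repress in mice, stood at 31.1, 41.9, 48.7 and 60.3 per 100 Rpl22 counts in Chat-pos libraries, against 54.5, 17.7, 34.9 and 21.8 in Chat-neg libraries (0.58, exact permutation p = 0.229). Rpl22l1 itself was not called (log2 difference -0.88 ± 0.28, edgeR adjusted p = 0.0579). Rpl7l1 stood at 6.87, 11.8, 12.7 and 11.7 per 100 Rpl7 counts in Chat-pos libraries and at 53.3, 14.4, 15.3 and 5.68 in Chat-neg libraries (-0.63, exact permutation p = 0.371), where the value of Chat-neg 1 rested on few counts. After adjustment the p-values of these 3 pairs were 0.229, 0.305 and 0.371.

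Genes tied to the family by function were set beside it. Of 4 ribosomal protein genes with other names, 1 was called lower: Rack1, the scaffold protein on the head of the small subunit, had 215, 264, 255 and 247 CPM in Chat-pos libraries 1 to 4, against 269, 410.0, 322 and 690.1 CPM in Chat-neg libraries 1 to 4 (log2 difference -0.85 ± 0.23, edgeR adjusted p = 0.0227). All Chat-pos values for Rack1 lay below all Chat-neg values. Fau, made as a fusion of a ribosomal protein with a ubiquitin-like domain, and Rpl36al had log2 differences of -0.32 ± 0.21 and -0.64 ± 0.22 and were not called. Of 18 other genes whose mRNAs are known to begin with a TOP tract, 2 were called lower, the elongation factor subunit Eef1d (-0.75 ± 0.21) and the initiation factor Eif4b (-0.98 ± 0.29), and the median was -0.40. Eef1a1, the factor that brings aminoacyl-tRNA, had 139.9, 329.5, 383 and 359 CPM in Chat-pos libraries, against 207, 298, 319 and 578 CPM in Chat-neg libraries, which overlapped (-0.28 ± 0.33). Among 7 tested host genes of small nucleolar RNAs 1 was called lower, Snhg8 (-1.55 ± 0.35), and the median was -0.96. Of 13 tested genes of ribosomal protein transcription and S6 control, 1 was called lower, the translation repressor Eif4ebp2 (-1.27 ± 0.35), and the median was -0.004. Whether these lists differ from the ribosomal proteins was not tested.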

How the data were processed

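The authors deposited 1 table of unnormalised read counts with a row per gene symbol. Per the labels' protocols, cells were sorted into SMARTer v4 reagents and the amplified cDNA was made into Nextera XT libraries, sequenced from 1 end for 74 cycles; per the submitters' processing notes the build was GRCm38. How reads were aligned and counted, and on which annotation, is not given in the sources used here. Such libraries mark no strand and carry no molecular identifiers, so intervals cover counting error only. The 36 rows with no gene name held 58.6% to 64.6% of all counts in Chat-pos and 67.8% to 88.4% in Chat-neg and were left out; 229 rows that shared 114 symbols were summed. Named counts per library set the depth, lowest in Chat-neg 1. No 2 libraries of a group agreed within sampling noise.

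Counts of all genes were tested with edgeR 4.0.16 (R 4.3.3): TMM scaling, filterByExpr, robust glmQLFit with the group alone in the model, and p adjusted by Benjamini-Hochberg (threshold 0.05). Standard errors come from the difference and its F statistic. CPM values are per 1000000 of TMM-scaled named-gene totals. Levels per kb use 1 principal transcript of GENCODE M21, in which all 89 members were found; 23 members share exon bases with another gene and, like members with near-identical pseudogenes, are uncertain. Ratios of copies were tested by exact permutation (scipy 1.17.1), with a pseudocount of 0.5 counts. The results were recomputed with 3 other scalings (total count, RLE and upper-quartile), with no filter or 5 CPM in 4 libraries as the filter, with limma-voom (limma 3.58.1) and DESeq2 1.42.0, and with a replicate block, libraries left out, or 293 rows of pseudogenes added to their members. The edgeR test was also run on counts simulated independently for each gene. Such counts do not cover genes that vary together or libraries that differ in cell mixture. Named are, per subunit, the 4 members with the smallest p, the 3 with the highest log2 difference, the 3 highest per kb, the paralog pairs and the members of the role lists; other members were singled out after their values were seen. The members and lists were chosen with earlier results of these data known. Some genes are counted in the totals and medians but are not reported here by name or drawn as rows of the plots.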

Additional observations from a re-analysis of the deposited data

Results flagged for a closer look

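Dixon's test for a library that stands apart from the other 3 of its group was applied to 102 sets of values, those of the named members and of 5 shares and ratios in each group, and chance marks about 1 in 20 such sets. It marked 2. Rps2 was at 59.25 CPM in Chat-pos 1, against 87.8 to 92.8 CPM in the other Chat-pos libraries, and Rps23 was at 67.51 CPM in Chat-pos 4, against 78.8 to 81.0 CPM in the others. Both lone values were the lowest of their group, and both genes were called lower in Chat-pos.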

How the results depend on the processing

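The number of members called lower, 54 (28 large, 26 small), was 50 to 63 under RLE, upper-quartile and total count scaling, the 5 CPM filter, DESeq2, limma-voom, the replicate block and added pseudogene rows. With no filter on low counts it was 14 (6 large, 8 small), where the median of all genes moved to -0.34; under total count scaling that median was -0.14. Without both Paneth-rich libraries it was 20 (7 large, 13 small). Leaving out 1 library gave 32 to 63 (15 to 34 large, 17 to 29 small), lowest without Chat-neg 4. The small subunit count was 17 without Chat-neg 2 too. Over all genes, 256 were called lower in the main fit and 230 to 402 in the settings that gave 50 to 63 members. With no filter 143 genes were called lower, and without both Paneth-rich libraries 86. Leaving out 1 library gave 110 genes (without Chat-neg 2) to 309 (without Chat-neg 1). The cause of these changes was not tested. The median log2 difference of the members stayed negative, from -1.08 to -0.71. The same-numbered libraries did not deviate together (r from -0.02 to 0.05), and whether they share an animal or a day is not given in the sources used here. The replicate block gave 50 called members (26 large, 24 small). The small to large ratio differed by -0.05 (Chat-pos minus Chat-neg), and by -0.01 with Rpl41 not counted, an alternative chosen after seeing the data. The log2 difference of Rpl41 was positive with no filter (0.1411) and without the Paneth-rich libraries (0.2104), and ran from -0.2487 to 0.0445 when 1 library was left out, positive without Chat-pos 3, Chat-neg 3 or Chat-neg 4. The log2 difference of Rpl18 was positive with no filter (0.0874), and ran from -0.2175 to 0.0110 when 1 library was left out, positive without Chat-neg 4. Of 828 refits of 46 named members, 744 kept direction and side of the threshold, 60 lost a call and 17 gained one. The Rps4l to Rps4x difference, with 1.10 to 1.53 when 1 library is left out, cannot pass there, since 3 against 4 libraries allow no p under 0.0571. Depth limits Chat-neg 1 most.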
